A study of Trichoderma asperellum with 9 samples.

Results

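Of 9396 gene models measured in strain Ts93 of Trichoderma asperellum, a soil fungus of a genus used against plant pathogens, 143 (1.52%) were higher with added copper and stood near the control with BCS. The members were chosen by their own measured values, in units of FPKM (fragments scaled to the length of the model and the size of the library). A member had a mean with copper of at least 5 FPKM and a log2 difference between copper and control of at least 1. Its log2 difference between BCS and control lay within 0.5 of 0, and each of its 3 copper values lay above all 6 BCS and control values. Both log2 differences were taken between group means after adding 1 FPKM, which draws the BCS difference of the lowest members towards 0. All 3 contrasts between the groups therefore helped to choose the members, so the levels below are a description, and no p-value is given for any member.

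The 9 libraries fell into 3 groups of 3: 1 mM copper ions, 0.5 mM BCS, and a control labelled CK. All were total RNA of the same strain, labelled wild type; growth medium, exposure time and the number of cultures behind a group are not given in the labels. No label tells separate cultures from repeat libraries of 1 culture, so the spread within a group may be technical. Read totals recovered from the FPKM values ran from 12335534 to 17142918 per library. In these bulk samples, a higher value per cell and a larger share of cells with the transcript cannot be told apart.

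Copper is a cofactor of respiratory cytochrome oxidase, of laccases and of copper-zinc superoxide dismutase, and is toxic in excess. In the yeast Saccharomyces cerevisiae the 2 sides of copper supply are handled by separate regulators. Ace1 switches on metallothionein genes when copper is abundant, and Mac1 switches on high-affinity copper uptake when it is scarce. BCS is not spelled out in the labels, and is commonly bathocuproine disulfonate, a copper chelator used to impose shortage. The identifiers come with no gene names, and 0 of the 143 members matched an entry among 12041 genes of the T. asperellum FT101 reference table. No function, genome position or sequence is therefore given for any member, and no pathway list could be filled.

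Each criterion removed models in turn. A log2 difference of at least 1 between copper and control held for 405 models, and 344 of these also had a copper mean of at least 5 FPKM. Of the 344, BCS lay within 0.5 of the control for 151, at least 0.5 below it for 134 and at least 0.5 above it for 59. Among the 151, 8 had copper values that overlapped the other libraries, which left the 143 members. In all tested models (7857, those with at least 1 FPKM in at least 3 libraries), the log2 difference between BCS and control lay within 0.5 of 0 for 66.7%. Every copper value lay above all 6 others in 17.9% of tested models, against all members by the rule. All 143 members were among the tested models.

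**Figure D1:**
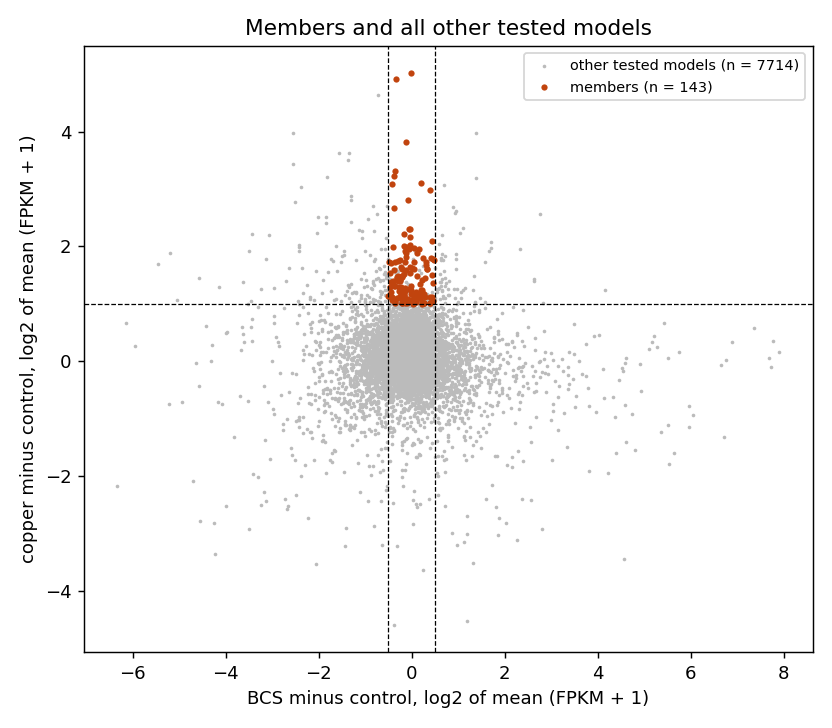
Each point is 1 tested model, with the log2 difference between BCS and control on the horizontal axis and that between copper and control on the vertical axis (group means of 3 libraries, 1 FPKM added). The 143 members (orange) lie in the strip above 1 and within 0.5 of 0 (dashed lines), and the strip thins out quickly above 2.

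Most members stood a little over 2-fold above the control. On the log2 scale the difference was 1.31 in the median member and ran from 1.00 to 5.01, against a median of 0.11 over all tested models. Between 1 and 2 lay 126 members, between 2 and 3 lay 10, between 3 and 4 lay 5, and above 4 lay 2. Against BCS the median difference of the members was 1.46, with a range of 0.58 to 5.25, and over all tested models it was 0.22. These differences depended on how libraries were scaled. Over all tested models the median difference between copper and control was 0.23 on a TPM scale (each library scaled to the same sum), -0.04 after median-of-ratios scaling and -0.02 after quantile normalization. The members' medians were then 1.44, 1.16 and 1.24, and 48 of the 143 were below 1 after median-of-ratios scaling and 42 after quantile normalization.

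The largest difference belonged to 93-3_5.6A0825 (coding length 957 bases), which had 81.2, 94.1 and 82.6 FPKM with copper, 0.423, 1.62 and 2.95 FPKM with BCS, and 1.58, 1.77 and 1.75 FPKM in the control. Its lowest copper value was 27.5 times its highest value elsewhere. The log2 difference between copper and control was 5.01, and the ratio of the means was 50.6. Its control values were almost level, its copper values were close together, and its BCS values were spread over several-fold.

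Model 93-3_5.6A6785 (726 bases) had 52.8, 82.9 and 55.2 FPKM with copper, 0.447, 0.742 and 0.921 FPKM with BCS, and 1.57, 1.45 and 0.411 FPKM in the control. Its ratio of copper to control means, 55.8, exceeded that of 93-3_5.6A0825, while its log2 difference of 4.92 was smaller because 1 FPKM was added before taking logs. The gap between its lowest copper value and the highest other value, 33.7-fold, was the widest of all members. These were the only members above 4 on the log2 scale.

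The next members were low without copper. Model 93-3_5.6A0368 (1107 bases) had 10.98, 22.6 and 20.4 FPKM with copper, 0, 0.365 and 0.335 FPKM with BCS, and 0.137, 0.316 and 0.593 FPKM in the control. Behind its control values stood 2, 6 and 11 reads. Its log2 difference was 3.82 with 1 FPKM added and 5.33 with 0.1 FPKM added, the ratio of its means was 51.6, and copper replicate 1 was well below the other copper libraries. Model 93-3_5.6A2330 (1200 bases) had 22.2, 22.5 and 18.9 FPKM with copper, 0.743, 0.505 and 0.928 FPKM with BCS, and 2.34, 0.437 and 0.896 FPKM in the control. Control replicate 1 was the highest of its 6 low values, and the log2 difference was 3.32. Model 93-3_5.6A6404 (1302 bases) had 10.02, 14.05 and 12.5 FPKM with copper, 0.0622, 0.103 and 0.0570 FPKM with BCS, and 0.524, 0.269 and 0.413 FPKM in the control. Its BCS values rested on 1, 2 and 1 reads and were all below its control values, although the added 1 FPKM kept its log2 difference between BCS and control at -0.38.

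Model 93-3_5.6A5530 (621 bases) had 11.2, 16.01 and 23.6 FPKM with copper, 0.653, 0.434 and 3.11 FPKM with BCS, and 1.34, 1.41 and 0.481 FPKM in the control. The third BCS library stood apart from the other two and set its gap of 3.61-fold. Model 93-3_5.6A6384 (1116 bases) had 9.15, 15.96 and 19.4 FPKM with copper, 0.0726, 0.664 and 0.466 FPKM with BCS, and 0.679, 0.470 and 1.44 FPKM in the control. Its mean was 0.401 FPKM with BCS and 0.865 FPKM in the control, a log2 difference of -0.41 after adding 1 FPKM. Model 93-3_5.6A1200 (894 bases) differed from all of these in its level without copper. It had 68.01, 115 and 97.4 FPKM with copper, 14.8, 4.90 and 24.3 FPKM with BCS, and 21.95, 7.18 and 3.61 FPKM in the control. Both of its lower groups were scattered, with standard deviations of 9.72 FPKM with BCS and 9.73 FPKM in the control (n = 3 each), and their ranges largely coincided.

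Lowest in the control were 93-3_5.6A0844 and 93-3_5.6A2939, besides 93-3_5.6A0368 and 93-3_5.6A6404. Model 93-3_5.6A0844 (657 bases) had 5.18, 10.2 and 7.11 FPKM with copper, 0.123, 0 and 0.339 FPKM with BCS, and 0.115, 0.266 and 0.273 FPKM in the control, where it had 1, 3 and 3 reads. Its log2 difference of 2.80 became 4.58 when 0.1 FPKM was added in place of 1. Model 93-3_5.6A2939 (582 bases) had 7.10, 7.79 and 9.10 FPKM with copper, 0, 0.116 and 0.128 FPKM with BCS, and 0.130, 0.301 and 0.821 FPKM in the control. Its BCS values were all below its control values, although the added 1 FPKM kept its log2 difference between BCS and control at -0.39. In 4 members all 6 BCS and control values were below 1 FPKM, and 5 members were below 1 FPKM in all 3 control libraries. A value of 0 occurred in 3 members, each with 1 such library among the BCS libraries. Only 1 member had fewer than 10 reads summed over the control libraries, while 11 had fewer than 10 reads in at least 1 control library. The median copper value of a member rested on 900.0 reads, the median BCS value on 318 and the median control value on 390.0.

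**Figure D2:**
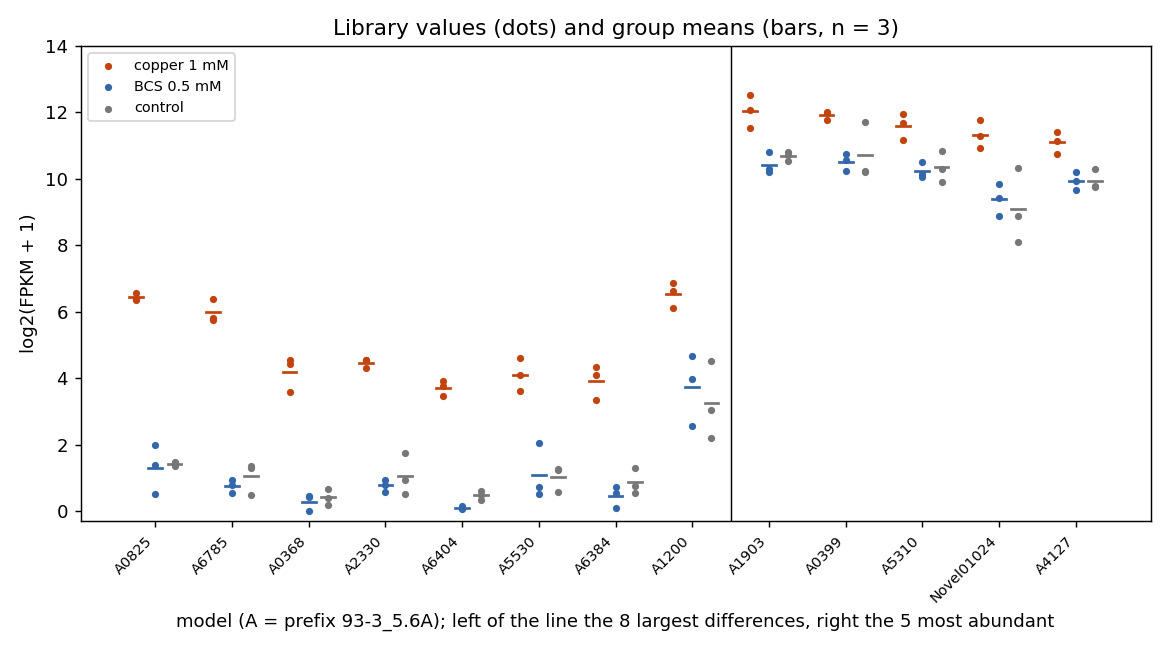
Dots are single libraries and bars the means of the 3 log2 values of a group, on a log2(FPKM + 1) axis, for the 8 members with the largest difference between copper and control (left) and the 5 most abundant members (right). The members on the left go from near 0 to well above it, except 93-3_5.6A1200, whereas those on the right are high in every library.

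Members with low control levels were few, but the rule's minimum of 5 FPKM with copper shapes these classes. That minimum alone kept out 44 further models. A mean control level under 1 FPKM was found in 7 members (4.90%, against 3.98% of tested models), 1 to 5 FPKM in 30 members (21.0%, against 17.3%), and 5 to 20 FPKM in 34 members (23.8%, against 27.3%). The largest class, 60 members or 42.0% (against 33.8% of tested models), had 20 to 100 FPKM in the control. Only 12 members were higher, 6 of them with 100 to 500 FPKM (4.20%, against 12.8% of tested models) and 6 with 500 FPKM or more (4.20%, against 4.76%). The median member had 61.8 FPKM with copper, 20.5 FPKM with BCS and 20.4 FPKM in the control. Over all tested models these medians were 23.9, 20.02 and 21.3 FPKM. Without copper the members' medians were thus near those of tested models, in a set chosen with that minimum. The ratio of copper to control means had a median of 19.2 in the lowest class, where the minimum of 5 FPKM with copper forces large ratios. It was 3.54, 2.36, 2.57, 2.25 and 2.31 in the classes above it.

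A few abundant members held most of the transcript mass of the set. The 5 highest with copper made up 54.2% to 56.4% of the members' summed FPKM in the copper libraries. Model 93-3_5.6A1903 (657 bases) had 2935, 4343 and 5902 FPKM with copper, 1256, 1174 and 1775 FPKM with BCS, and 1799.9, 1480.0 and 1694 FPKM in the control. Model 93-3_5.6A5310 (2778 bases) had 2299, 3282 and 3952 FPKM with copper, 1127, 1072 and 1447 FPKM with BCS, and 1816, 957 and 1263 FPKM in the control. Model 93-3_5.6A4127 (1137 bases) had 1735, 2278 and 2745 FPKM with copper, 985, 804 and 1182 FPKM with BCS, and 1245, 885 and 855 FPKM in the control. In these 3 models copper replicate 3 was the highest and replicate 1 the lowest copper library, and BCS replicate 3 was the highest BCS library. Their ratios of copper to control means were 2.65, 2.36 and 2.26.

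The other 2 abundant members were less even. Model 93-3_5.6A0399 (747 bases) had 4017, 4169 and 3515 FPKM with copper, 1706, 1194 and 1530.5 FPKM with BCS, and 3334, 1205 and 1171 FPKM in the control. Control replicate 1 came within a factor of 1.05 of its lowest copper value, while the other 2 control libraries were close to each other and to BCS replicate 2. Its log2 difference was 1.03 with all libraries and 1.71 without control replicate 1. Novel01024 (3696 bases), 1 of the 8 members outside the numbered identifiers (supplementary models), had 3497, 2484 and 1963 FPKM with copper, 686, 471 and 928 FPKM with BCS, and 468, 1287 and 273 FPKM in the control. Here control replicate 2 stood above the rest of its group, and copper replicate 1 was the highest copper library. The summed share of all members was 2.77% ± 0.244 of the FPKM of a library with copper, 0.947% ± 0.0758 with BCS and 1.000% ± 0.236 in the control (SD, n = 3 each). The rule fixes the direction of this difference.

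**Figure D3:**
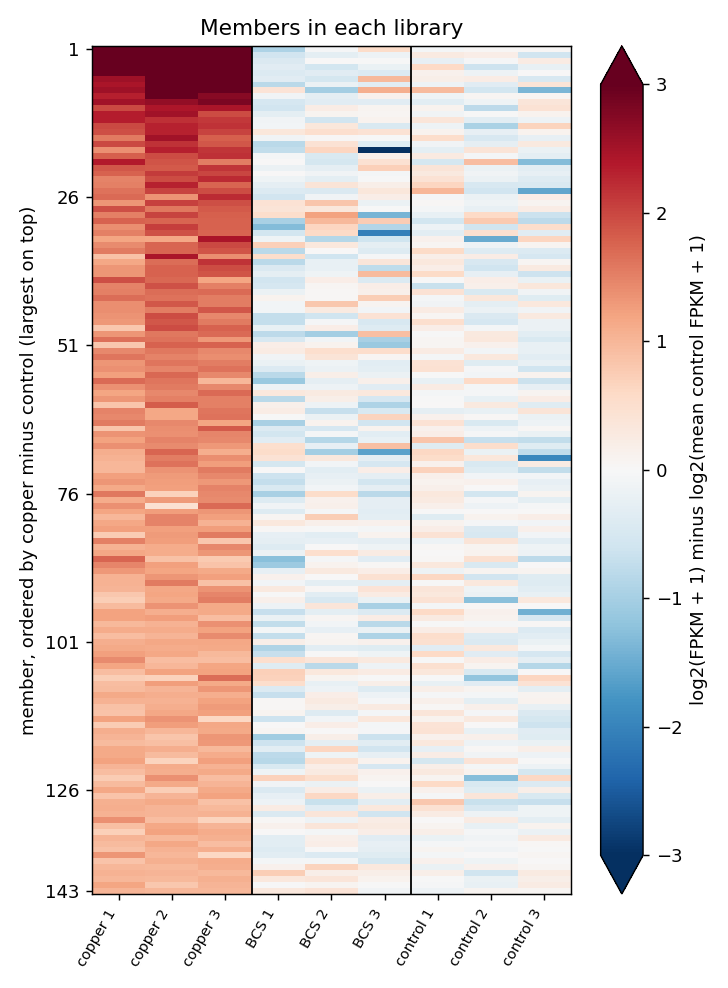
Rows are the 143 members, ordered by the difference between copper and control, and columns are the 9 libraries. Colour gives log2(FPKM + 1) of a library minus that of the control mean, cut at 3 in either direction; the copper columns are red throughout, while the BCS and control columns scatter around 0, with the darkest blue cells in BCS replicate 3.

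On the deposited scale the members leaned slightly below the control with BCS, inside the window that the rule allows. Below the control were 90 members (62.9%) and above it 53, with a median log2 difference of -0.11 and a range of -0.499 to 0.473. Among all 5240 tested models inside that window, 55.5% were below the control, and the median over all tested models was -0.07. The lean depended on scaling and on single libraries. The members' median was -0.02 after median-of-ratios scaling, -0.03 after quantile normalization and -0.06 on the TPM scale. It was 0.00 without BCS replicate 1 and 0.01 without control replicate 1, and -0.15 to -0.11 when any other library was left out. A narrower window of 0.25 held 83 of the members. At the upper edge, 93-3_5.6A6177 had 53.6, 52.6 and 53.6 FPKM with copper, 7.12, 30.05 and 25.9 FPKM with BCS, and 9.93, 26.4 and 8.28 FPKM in the control. Its copper values were nearly identical, whereas its BCS and control libraries each split into high and low ones over a common range. At the lower edge, 93-3_5.6A1006 had 189.5, 186 and 189 FPKM with copper, 45.3, 68.3 and 66.5 FPKM with BCS, and 67.0, 107 and 81.5 FPKM in the control. Just outside the window lay 93-3_5.6A3857 and 93-3_5.6A0937, each at 0.509. Model 93-3_5.6A3857 had 336, 326 and 308 FPKM with copper, 244, 215 and 198 FPKM with BCS, and 183, 149 and 129 FPKM in the control, so that its 3 groups did not overlap.

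The threshold on the copper difference cut through a dense region. Between 1 and 1.1 lay 34 members, and 36 models with a difference of 0.9 to 1 met every other criterion. Just inside, 93-3_5.6A4151 (1.004) had 27.9, 27.7 and 27.4 FPKM with copper, 16.7, 18.1 and 12.4 FPKM with BCS, and 11.9, 14.2 and 13.8 FPKM in the control. Also just inside were 93-3_5.6A6492 (1.006) and 93-3_5.6A5744 (1.011). Just outside, 93-3_5.6A6339 (0.993) had 15.4, 15.6 and 14.1 FPKM with copper, 5.98, 7.84 and 6.92 FPKM with BCS, and 6.91, 8.42 and 5.87 FPKM in the control. Next below it were 93-3_5.6A6777 (0.990) and 93-3_5.6A0322 (0.982). Models on both sides of the threshold thus had alike profiles. A further 44 models met the other criteria with a copper mean under 5 FPKM. The first of them was Novel02023, at 4.53 FPKM, and the lowest member was 93-3_5.6A3964, at 5.11 FPKM.

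The 8 models that failed only because values overlapped showed which libraries lay closest to the other side. In 7 of the 8, copper replicate 1 was the lowest copper library, and in 5 of the 8, control replicate 1 was the highest of the 6 BCS and control libraries. One of them, 93-3_5.6A4527 (chosen for naming once its values were known), was far more abundant than any member. It had 17713, 29602 and 33334 FPKM with copper, 12387, 7655 and 14026 FPKM with BCS, and 19447, 11202 and 8058 FPKM in the control. The overlap came from control replicate 1 and copper replicate 1 alone.

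The same libraries stood closest together among the members. Copper replicate 1 was the lowest copper library for 84 members, although it was the highest copper library for 52.7% of all tested models and for 20.3% of members. Control replicate 1 was the highest of the 6 BCS and control libraries for 51 members, followed by BCS replicate 2 for 34, BCS replicate 3 for 18, control replicate 3 for 16, and control replicate 2 and BCS replicate 1 for 12 each. At least 1.5 times the mean of the other control libraries was reached by control replicate 1 in 28.7% of members, against 13.3% of tested models. For BCS replicate 3 the same comparison within its own group gave 13.99% of members and 6.17% of tested models, and for BCS replicate 2 it gave 25.2% of members and 34.8% of tested models. BCS replicate 2 was the highest BCS library for 53.1% of members and 67.6% of tested models. Control replicate 1 was the highest control library for 47.6% of members and 31.7% of tested models. In 47 members, copper replicate 1 was the lowest copper library and control replicate 1 the highest control library. For this count, the lowest copper library and the highest of the 6, no share over all tested models was taken. Whether those counts are particular to the members was not tested. What sets these libraries apart was not tested.

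The spread within groups was smallest with copper. The median standard deviation of log2(FPKM + 1) was 0.20 with copper, 0.31 with BCS and 0.35 in the control for the members, and 0.18, 0.32 and 0.25 for all tested models (n = 3 libraries per group). Of the 143 members, 14 had a standard deviation over 0.5 with copper, 34 with BCS and 35 in the control. The highest copper value was 1.32 times the lowest in the median member and at least 2 times the lowest in 14 members. Model 93-3_5.6A4365 had the widest range, at 3.13-fold, and is named for that reason only, after its values were known. It had 14.3, 44.6 and 20.8 FPKM with copper, 11.0, 4.53 and 7.17 FPKM with BCS, and 8.42, 8.66 and 4.92 FPKM in the control.

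The gap between the lowest copper value and the highest other value had a median of 1.68-fold. It reached 2-fold in 42 members and was under 1.2-fold in 8. The narrowest was that of 93-3_5.6A0486, the longest member with a coding length of 12108 bases. This model had 32.9, 31.6 and 63.9 FPKM with copper, 31.5, 20.3 and 19.1 FPKM with BCS, and 18.9, 7.95 and 30.7 FPKM in the control, so that copper replicate 3 alone stood well clear of the other groups.

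Lengths, which the rule did not use, were those of the other models. The 135 members with a strain-specific number had a median coding length of 1137 bases, with quartiles of 736 and 1593 bases. Over all tested models of that kind the median was 1143 bases, with quartiles of 756 and 1671 bases. The shortest members were 93-3_5.6A2499 (225 bases) and 93-3_5.6A2810 (258 bases). Model 93-3_5.6A2810 was also abundant, with 799.7, 705 and 804 FPKM with copper, 275, 199.9 and 319.8 FPKM with BCS, and 489, 376 and 195 FPKM in the control. Model 93-3_5.6A2499 had 25.6, 35.0 and 40.2 FPKM with copper, 6.84, 8.08 and 5.28 FPKM with BCS, and 11.1, 5.96 and 11.7 FPKM in the control. Supplementary models were 8 of the members (5.59%) and 18.3% of tested models. Besides Novel01024, the one with the largest difference was Novel00464 (2105 bases), with 5.08, 7.25 and 7.92 FPKM with copper, 1.00, 1.22 and 3.70 FPKM with BCS, and 2.63, 1.05 and 0.567 FPKM in the control. Novel00039 (8072 bases), the longest of them, had 19.1, 19.0 and 20.3 FPKM with copper, 7.96, 6.83 and 7.19 FPKM with BCS, and 9.83, 9.11 and 5.96 FPKM in the control.

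Several members carried adjacent identifier numbers, another feature outside the rule. No source used here says whether the numbers follow the order of genes on chromosomes, or whether adjacent models overlap or share reads. Of 135 numbered members, 15 (11.1%) stood in 6 runs of consecutive numbers. Among the tested models 1 number away from a member, 7.53% were themselves members, against 2.00% among the models 1 number away from any tested model. This share was 5.58% at a distance of 2, 4.76% at 3, 3.31% at 10 and 0.816% at 100. Neighbours that were not members had a median log2 difference between copper and control of 0.24 at a distance of 1 (217 models) and 0.09 at a distance of 2 (235 models). For all tested numbered models outside the set it was 0.13.

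The longest run held 4 members, 93-3_5.6A2281 to 93-3_5.6A2284. Model 93-3_5.6A2281 (876 bases) had 196, 258 and 230.3 FPKM with copper, 45.6, 102 and 15.6 FPKM with BCS, and 54.1, 95.2 and 53.3 FPKM in the control. Model 93-3_5.6A2282 (1158 bases) had 103, 202 and 177 FPKM with copper, 23.3, 62.3 and 3.66 FPKM with BCS, and 32.3, 52.3 and 34.0 FPKM in the control. Model 93-3_5.6A2283 (1011 bases) had 134, 192 and 163 FPKM with copper, 67.7, 109 and 17.2 FPKM with BCS, and 39.6, 70.3 and 29.5 FPKM in the control. The order of the copper libraries was the same in all 3 models, and so was that of the BCS libraries. Replicate 2 was highest in every group, and BCS replicate 3 was by far the lowest BCS library. Model 93-3_5.6A2284 (2835 bases) had 256, 322 and 294 FPKM with copper, 60.7, 81.4 and 46.3 FPKM with BCS, and 57.3, 33.0 and 102 FPKM in the control, where replicate 2 was lowest rather than highest. The model before the run, 93-3_5.6A2280, was no member, with a log2 difference of 1.17 between copper and control and of -0.66 between BCS and control. The model after it, 93-3_5.6A2285, stood at -0.02 between copper and control.

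A run of 3 members, 93-3_5.6A1820 to 93-3_5.6A1822, was led by copper replicate 1. Model 93-3_5.6A1820 (630 bases) had 40.02, 29.03 and 24.2 FPKM with copper, 15.3, 13.3 and 17.3 FPKM with BCS, and 14.8, 17.6 and 11.9 FPKM in the control. Model 93-3_5.6A1821 (1536 bases) had 151, 142 and 93.6 FPKM with copper, 20.7, 38.0 and 51.3 FPKM with BCS, and 39.1, 69.9 and 29.3 FPKM in the control. Model 93-3_5.6A1822 (942 bases) had 406, 222 and 210.1 FPKM with copper, 49.99, 119 and 95.4 FPKM with BCS, and 124, 168 and 69.5 FPKM in the control. All 3 shared the order of the control libraries, with replicate 2 highest and replicate 3 lowest. The numbers on either side behaved otherwise: 93-3_5.6A1819 was near 0 in every library, and 93-3_5.6A1823 had a log2 difference of 0.30 between copper and control.

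The pair 93-3_5.6A0485 and 93-3_5.6A0486 was led by copper replicate 3. Model 93-3_5.6A0485 (1158 bases) had 78.1, 76.1 and 189.6 FPKM with copper, 30.5, 18.1 and 22.1 FPKM with BCS, and 37.0, 11.2 and 52.9 FPKM in the control. Its values and those of 93-3_5.6A0486, given above, moved in the same order in the copper and control libraries. The 3 numbers before the pair, 93-3_5.6A0482 to 93-3_5.6A0484, were no members because BCS lowered their means beyond the window. Their log2 differences between copper and control were 1.40, 1.89 and 1.74, and between BCS and control they were -2.70, -5.20 and -1.70. In each of these 3 models copper replicate 3 was again the highest copper library. The pair 93-3_5.6A0769 and 93-3_5.6A0770 was led by copper replicate 2, and a further member, 93-3_5.6A0773, stood 3 numbers on. Model 93-3_5.6A0769 (1083 bases) had 74.2, 104 and 86.3 FPKM with copper, 17.1, 35.1 and 27.2 FPKM with BCS, and 30.4, 29.0 and 33.4 FPKM in the control. Model 93-3_5.6A0770 (396 bases) had 85.0, 114 and 86.6 FPKM with copper, 20.7, 31.1 and 34.5 FPKM with BCS, and 18.4, 33.0 and 37.8 FPKM in the control.

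**Figure D4:**
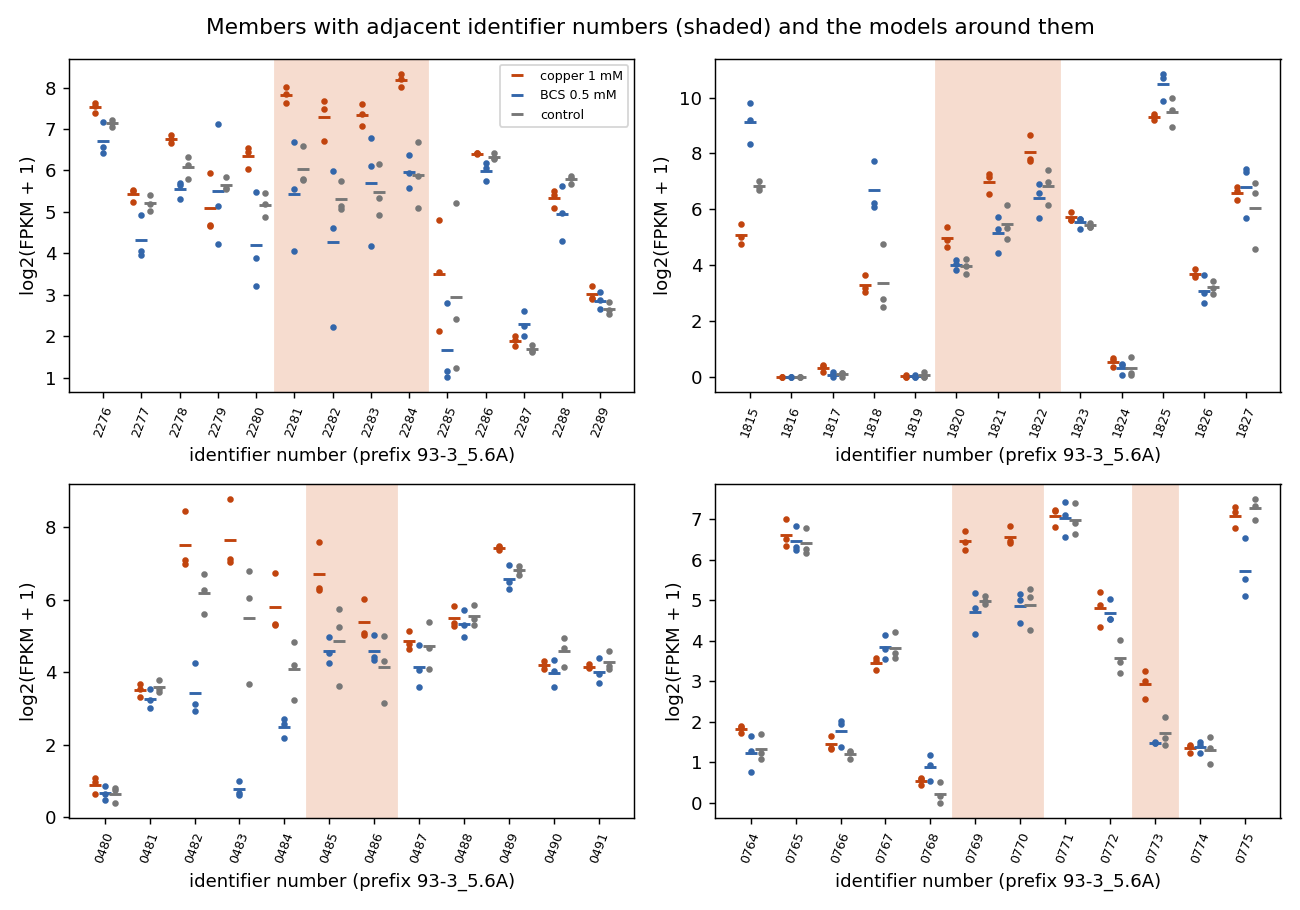
Panels show the 4 runs of adjacent members described in the text (shaded) with 5 identifier numbers on either side, including the further member 93-3_5.6A0773; dots are libraries and dashes the means of their log2(FPKM + 1). Copper values lie above those of BCS and control in the shaded models, only barely in 93-3_5.6A0486, and mostly not in the models beside them. Models 93-3_5.6A0482 to 93-3_5.6A0484 differ by their low BCS values.

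Adjacent members also shared their deviations from the group means. Across the 9 libraries, the correlation of these deviations had a median of 0.75 over the 9 adjacent pairs of members, with a range of 0.05 to 0.98. Over all 5978 adjacent pairs of tested models the median was 0.32, and at a distance of 100 numbers it was 0.18 (5761 pairs). The points of a pair come from the same libraries, so deviations of whole libraries enter every pair, and the values are given as a description. The lowest value, 0.05, was that of 93-3_5.6A2283 with 93-3_5.6A2284, and the highest, 0.98, occurred for 93-3_5.6A0485 with 93-3_5.6A0486 and for 93-3_5.6A2281 with 93-3_5.6A2282. The rule used group means and the order of groups, and not how libraries of a group deviate from their mean, although it favours small deviations.

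Libraries left out of the choice gave values the choice had not used. With copper replicate 1 left out, the same rule chose 149 models, and in 138 of them (92.6%) the left-out value lay above all 6 BCS and control values, as it did in 34.6% of tested models. With copper replicate 2 left out this held for 136 of 139 chosen models (97.8%) and 25.7% of tested models, and with replicate 3 left out for 138 of 140 (98.6%) and 25.7%. The median log2 difference of the left-out copper library from the control mean was 1.18, 1.35 and 1.39 for replicates 1, 2 and 3, and it was at least 1 in 66.4%, 80.6% and 77.9% of the chosen models. The control mean in these differences had taken part in the choice, whereas the copper value had not.

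For the lower groups, the left-out value was set against the copper libraries. BCS replicates 1, 2 and 3 lay below all 3 copper values in 154 of 160, 124 of 125 and 147 of 152 models chosen without them (96.2%, 99.2% and 96.7%), against 62.1%, 39.4% and 59.7% of tested models. For control replicate 2 the shares were 91.4% of 152 chosen models and 45.8% of tested models, and for control replicate 3 they were 98.4% of 127 and 47.7%. Control replicate 1 was the exception in size. Without it the rule chose 216 models, 92 of which were no members, and the left-out values lay below all 3 copper values in 169 of the 216 (78.2%), against 46.2% of tested models. In those 216 models the copper mean stood above control replicate 1 by a median log2 difference of 0.89. The share in place was lowest for this library. The copper values in these comparisons had taken part in the choice, as had the 6 lower values for a left-out copper library, so a share above that of unselected models follows in part from the choice itself.

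**Figure D5:**
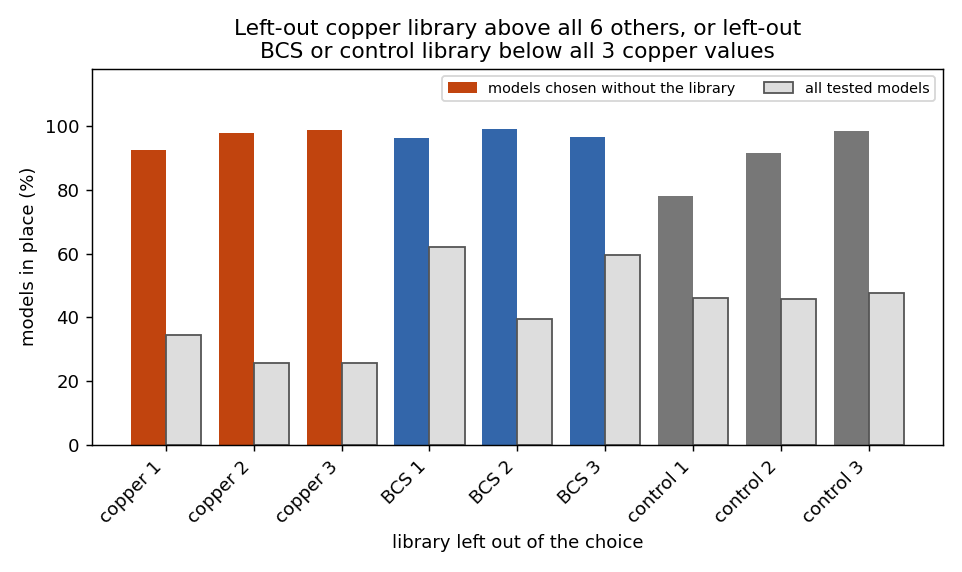
For each library left out in turn, the left bar gives the percentage of models chosen without it whose left-out value was in place (copper above all 6 BCS and control values, BCS or control below all 3 copper values), and the pale outlined bar the same for all 7857 tested models. The left bars stand between 78.2% and 99.2%, lowest for control replicate 1, and the pale bars between 25.7% and 62.1%.

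Model by model, a limma fit over all 7857 tested models (a linear model that shares its estimate of spread over models) called a difference at a Benjamini-Hochberg adjusted p under 0.05. Of the 143 members, 130 were called higher with copper than in the control, beside 6.66% of tested models called in that direction. In copper against BCS, 139 members were called higher with copper, beside 23.9% of tested models. In BCS against control, limma called 0 members, beside 17.1% of tested models called in either direction. There, 5 members had an unadjusted p under 0.05 in the limma fit. The rule caps this difference and so keeps that count low, and no count over all tested models is set beside it. A voom fit to the recovered reads called 1 member, beside 1355 models in all. Leaving out a library moved these counts and those of the whole table, not always in the same direction. Without control replicate 1, copper against control called 125 members and 925 models, against 130 and 750 with all libraries. Copper against control called 9.55% of tested models in either direction with all libraries, 3.88% without copper replicate 2 and 3.72% without copper replicate 3, and 76 members in both of these reduced fits. Without BCS replicate 2, BCS against control called 29.3% of tested models and 7 members. The rule used all 3 contrasts, so these counts describe the members and support nothing. Copper was called higher than both other groups in 129 members, beside 5.84% of tested models, and higher than neither in 3, beside 75.3% of tested models.

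The 13 members not called in copper against control had a median log2 difference of 1.21, against 1.34 for the 130 called. Among them were 3 of the 4 members of the longest run, 93-3_5.6A2281, 93-3_5.6A2282 and 93-3_5.6A2283, which had large differences and scattered BCS libraries. Also among them were 93-3_5.6A0399, 93-3_5.6A0486 and 93-3_5.6A1822. Control replicate 1 was the highest of the 6 BCS and control libraries in 5 of the 13, beside 51 of all 143 members.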

How the data were processed

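Per the labels' protocols, total RNA was taken up in Trizol and made into libraries with a NEBNext Ultra RNA kit. The authors deposited 1 table of FPKM values with 1 column per library. Per the submitters' processing notes, DESeq 1.18.0, HTSeq 0.6.1, TopHat2 2.0.12 and Bowtie2 2.2.3 took part in roles left unstated; the only build listed is of the mouse, and no source used here names the genome of the models.

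The rule was applied to the deposited FPKM values. Reads, totals and lengths were recovered from the definition of FPKM (reads divided by model length and library total); 100% of values came out whole within 0.01 reads, a condition that choosing the length makes easy for models with few reads. Lengths of the 135 numbered members were all divisible by 3, as were 99.53% of all numbered models once those with few reads were set aside. They are therefore called coding lengths here, which no annotation was at hand to check. The fit across all models was made with limma 3.58.1 (R 4.3.3) on log2(FPKM + 1) values, its prior variance following the mean level, fitted to all 9 libraries without a block, two-sided, after keeping models with at least 1 FPKM in at least 3 libraries; a fold change on this scale understates that of low models. Recovery and fit were tested on simulated data. The simulation drew normal noise with the same spread in all groups and raised few models, all with copper, on the log2(FPKM + 1) scale. In the data more models were called, in both directions, and spreads differed between groups, so its rates may not hold there. For copper against control, the fit called 45.0% of simulated 2-fold changes and 93.0% of 4-fold changes, and 4.167% of its calls were false. A model that is not called may therefore still differ. The members, lists and tests were chosen with earlier results of these data known. Named members were taken by rank in copper difference, copper level, control level, length and distance to a threshold, and by runs of identifier numbers; exceptions chosen on their values are marked.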

Additional observations from a re-analysis of the deposited data

How the results depend on the processing

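The number of members depended on scaling, on thresholds and on control replicate 1. It was 87 after median-of-ratios scaling (84 of them among the 143), 194 on the TPM scale (136 shared), 97 after quantile normalization (91 shared) and 151 with a pseudocount of 0.1 (131 shared). A log2 difference of at least 1.5 left 52, a BCS window of 0.25 left 83, and a copper mean of at least 1 FPKM gave 187. Of the 143, 75 were chosen under all 4 changes of scale or pseudocount. Leaving out 1 library gave 125 to 216, with 216 without control replicate 1, and 49 members were chosen in all 9 of these choices. Members called in copper against control numbered 76 to 133 when a library was left out, and all models called 289 to 1135. The 76 came without copper replicate 2 (301 models called) and without copper replicate 3 (289), against 750 with all libraries. In BCS against control, members numbered 0 to 7 and all models 755 to 2282, with 7 and 2282 without BCS replicate 2. There, 1 member was called after quantile normalization (1539 models), with a pseudocount of 0.1 (1367) and with voom (1355), against 0 and 1342 in the limma fit as reported; the causes were not tested. Counted in recovered reads, which weight long models more than FPKM does, the members held 4.25% with copper, 1.47% with BCS and 1.57% in the control.

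Libraries share replicate numbers across groups, and deviations of those with the same number had correlations from -0.28 to 0.21. For BCS and control replicate 1 (0.21 against -0.00) and copper and control replicate 3 (0.06 against 0.01), this exceeded the highest value with another number. In the remaining cases it was lower. Deviations from means of 3 libraries cannot exclude a pairing, so fits with and without a replicate block are given. With a replicate block, the 556 models called between copper and control included 126 members, the 2435 between copper and BCS 136, and the 1152 between BCS and control 0. Without it, all models called numbered 750, 2782 and 1342. For the 35 named members, 455 log2 differences between copper and control were recomputed. Of these, 25 moved by more than the spread between replicates, 0 reversed, and the lowest of all was 0.72. The members were chosen for this difference, so the lack of reversals follows largely from the choice. Only 15 of the 35 were chosen under all 4 changes of scale or pseudocount. With 3 libraries a group and 1 to 11 reads behind several low control and BCS values, ratios of the lowest members are imprecise.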
